A study of Mus musculus with 9 samples.

Results

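The genes described here are 38 genes of the hypoxia response and of glycolysis, taken as the rows of the deposited table whose symbol is on a fixed list. Of these, 19 belong to glucose use: 13 glycolytic enzymes (Hk1, Hk2, Gpi1, Pfkl, Pfkp, Aldoa, Tpi1, Gapdh, Pgk1, Pgam1, Eno1, Pkm and Ldha), 3 transporters of glucose or lactate (Slc2a1, Slc2a3 and Slc16a3) and 3 regulators (Pfkfb3, Pfkfb4 and Pdk1). The other 19 are the oxygen sensing machinery and further hypoxia targets: Hif1a, Epas1, Arnt, Egln1, Egln3, Vegfa, Adm, Car9, Car12, Bnip3, Bnip3l, Higd1a, P4ha1, P4ha2, Ddit4, Ankrd37, Ndrg1, Kdm3a and Mxi1. Each of the 38 symbols occurred once in the deposited table of 34745 genes, and all 38 were among the 14506 genes that passed the filter on low counts and were tested.

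RNA had been sequenced from 9 tumours of LLC (Lewis lung carcinoma), a transplantable mouse lung cancer line, with 3 tumours in each of 3 groups. Every host was a wild-type male C57BL/6 mouse, aged 6 to 8 in a unit that the labels do not give, and carried LLC cells injected under the skin of the flank; mice were allotted to groups at random when tumours were near 100 mm3. The isotype group was given an isotype control antibody at 10 mg/kg, the anti-PDL1 group an antibody against PDL1 at 10 mg/kg, and the BTZ+anti-PDL1 group that antibody at 10 mg/kg with BTZ at 0.5 mg/kg, all into the peritoneum. BTZ is bortezomib, a proteasome inhibitor used against myeloma, and PDL1 is a surface ligand that restrains T cells. The library titles of the isotype tumours say blank, and the treatment label was followed. None of the 9 tumours was labelled as given BTZ alone, so what BTZ adds can be read only on top of the antibody. The model is a single cell line in a single host strain and sex, and the number of doses and the day of collection are not stated in the labels.

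Total counts ran from 18.5 M to 21.5 M per tumour (M, mega). The libraries were made from whole tumour pieces, in which fewer cells of a type and less RNA per cell cannot be told apart. Of 12 markers of lung epithelium and adenocarcinoma, the type named in the labels, 5 had no count in any tumour (Nkx2-1, Scgb1a1, Sftpa1, Sftpb and Sftpc). Another 5 passed the filter on low counts (Cdh1, Krt8, Krt18, Krt19 and Napsa), and the 12 summed to 85.7 to 145 CPM per tumour. Isotype replicate 3, anti-PDL1 replicate 1 and BTZ+anti-PDL1 replicate 1 stood apart by skeletal muscle RNA: the summed level of 17 muscle markers was 3161, 1186 and 933 CPM there, and 19.2 to 247 CPM in the other 6 tumours. Across all genes, edgeR's quasi-likelihood test with Benjamini-Hochberg adjustment called 2, 2 and 1 of 14506 genes in the 3 comparisons.

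Cells short of oxygen stabilise the alpha subunits of the hypoxia-inducible factors (HIF), which oxygen otherwise marks for destruction: prolyl hydroxylases such as Egln1 and Egln3 modify them, and the proteasome then degrades them. Stable HIF pairs with Arnt, binds a short core motif near its targets, and raises genes for glucose uptake, glycolysis, lactate export, vessel growth, acid handling and mitochondrial clearance. In tumours these genes are usually high in regions far from vessels. Most glycolytic enzymes are also expressed at a high level in dividing cells with ample oxygen.

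The HIF core motif has the forms ACGTG and GCGTG, and both were searched on both strands in the 250 bases before the most upstream start of each gene in RefSeq (build GRCm38.p6). An entry was found for 34 of the 38 genes (none for Bnip3l, Epas1, Ndrg1 and Slc2a3). ACGTG was present in 16 of the 34 (47.1%), against 16.5% of the 27025 promoters in the RefSeq set, and GCGTG in 18 (52.9%), against 28.3%. Either form was present in 26 (76.5%), against 38.6%. The median GC content was 62.8% in the 34 promoters and 52.0% in all, and the motif counts were not matched for it. The 8 windows with neither form were those of Aldoa, Car12, Gpi1, Hk1, Mxi1, Pkm, Tpi1 and Vegfa. A match describes the letters of this window and not a bound site.

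The promoters of 6 genes are shown, 5′ to 3′ on the strand of the gene, because the comparisons turn on Pfkfb3, Slc2a1, Higd1a and Vegfa, and because Ldha and Pgk1 are abundant enzymes whose windows hold several matches. Capitals mark every match to either motif on either strand, so that CACGT and CACGC are the same motifs read from the other strand, and CACGTG is a match on both. The windows are chr2:11553930-11554179 (minus strand) for Pfkfb3, chr7:46845554-46845803 (plus) for Ldha, chrX:106186850-106187099 (plus) for Pgk1, chr4:119108495-119108744 (plus) for Slc2a1, chr9:121857797-121858046 (minus) for Higd1a and chr17:46032378-46032627 (minus) for Vegfa.
Pfkfb3: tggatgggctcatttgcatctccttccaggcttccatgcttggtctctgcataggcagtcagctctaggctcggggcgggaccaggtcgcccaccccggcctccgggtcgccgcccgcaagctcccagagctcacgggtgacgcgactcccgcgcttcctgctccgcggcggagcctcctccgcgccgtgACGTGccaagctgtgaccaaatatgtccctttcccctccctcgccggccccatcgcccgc
Ldha: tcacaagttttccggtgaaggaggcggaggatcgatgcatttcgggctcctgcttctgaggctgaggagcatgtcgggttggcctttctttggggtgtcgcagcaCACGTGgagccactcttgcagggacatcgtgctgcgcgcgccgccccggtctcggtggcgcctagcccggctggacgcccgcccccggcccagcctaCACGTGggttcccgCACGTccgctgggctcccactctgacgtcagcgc
Pgk1: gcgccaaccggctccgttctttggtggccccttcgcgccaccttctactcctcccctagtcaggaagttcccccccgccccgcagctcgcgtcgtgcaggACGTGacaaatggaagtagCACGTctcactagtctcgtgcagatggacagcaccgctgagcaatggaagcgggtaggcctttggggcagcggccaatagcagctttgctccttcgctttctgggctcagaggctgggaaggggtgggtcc
Slc2a1: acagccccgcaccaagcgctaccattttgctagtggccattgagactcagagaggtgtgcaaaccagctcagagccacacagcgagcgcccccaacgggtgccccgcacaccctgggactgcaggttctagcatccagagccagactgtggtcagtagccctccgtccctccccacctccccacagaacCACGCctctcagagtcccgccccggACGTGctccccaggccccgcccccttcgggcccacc
Higd1a: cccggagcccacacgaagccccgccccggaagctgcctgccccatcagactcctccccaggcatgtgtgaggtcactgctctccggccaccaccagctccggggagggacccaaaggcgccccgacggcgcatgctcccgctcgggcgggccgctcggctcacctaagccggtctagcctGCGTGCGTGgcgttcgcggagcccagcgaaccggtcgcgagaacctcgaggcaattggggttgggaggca
Vegfa: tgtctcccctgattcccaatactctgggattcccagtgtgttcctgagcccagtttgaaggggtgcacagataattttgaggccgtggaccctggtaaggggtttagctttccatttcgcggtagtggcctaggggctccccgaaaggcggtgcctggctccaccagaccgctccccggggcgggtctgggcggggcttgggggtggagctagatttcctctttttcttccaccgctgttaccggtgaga
Ldha had 5 matches to ACGTG, 4 of them from its pair of CACGTG palindromes. Pgk1 had 2 matches, Pfkfb3 had 1, and Slc2a1 had 1 of each form. The 2 matches of Higd1a to GCGTG overlap by a single base, and Vegfa had none in this window.

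Levels between genes were compared per length, as the authors' FPKM (fragments per kilobase of gene and per mega of the column total). Pkm, which makes pyruvate in the last step of glycolysis, had the highest mean of the 38 over the 9 tumours, at 1452 FPKM, and ranked 17 among all genes of the table. Pgam1 (356 FPKM) and Ldha (354 FPKM), a mutase of the lower pathway and the enzyme that turns pyruvate into lactate, came next and did not differ beyond their spread over tumours. They were followed by Pgk1 (262 FPKM), Tpi1 (157 FPKM) and Aldoa (132 FPKM). The prolyl hydroxylase Egln3 led the other hypoxia genes at 87.3 FPKM, ahead of Hif1a at 48.7 FPKM and Ddit4 at 39.3 FPKM. At the low end stood Pfkfb3 (2.28 FPKM), Pfkfb4 (1.50 FPKM), the glucose transporter Slc2a3 (1.28 FPKM) and the carbonic anhydrase Car12 (0.478 FPKM). The lowest count of any of the 38 in any tumour was 57, for Car12.

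Within most steps 1 gene supplied most of the RNA, measured as its share of the summed FPKM of the genes for that step. Aldoa made up 99.6% of the aldolase RNA on average over the 9 tumours, Ldha 99.5% of lactate dehydrogenase and Pgam1 98.6% of phosphoglycerate mutase. Slc2a1 made up 98.1% of the sum of Slc2a1 and Slc2a3, which leaves out other glucose transporter genes such as Slc2a6 (1.83 FPKM). Of the hexokinases, which trap glucose in the cell, Hk2 held 60.8%, Hk1 26.0% and Hk3 13.2%. The share of Hk2 ran from 52.0% in BTZ+anti-PDL1 replicate 2 to 73.1% in isotype replicate 2, with group means of 65.8% ± 6.48 (SD, n = 3) in the isotype, 60.9% ± 0.398 in the anti-PDL1 and 55.7% ± 3.79 in the BTZ+anti-PDL1 tumours. Every BTZ+anti-PDL1 tumour was below every tumour of the other 2 groups in this share. Hif1a made up 91.7% of the RNA of the 2 HIF alpha genes and Epas1 8.31%, and Egln3 held 65.2% of the prolyl hydroxylases against 23.8% for Egln1 and 11.0% for Egln2. The shares leave out the annotated copies Eno1b and Pgam1-ps2. Eno1b was listed at 185 FPKM on average, against 78.4 FPKM for Eno1, and if it is counted as an enolase gene, Eno1b made up 68.2% of the summed FPKM and Eno1 29.0%. Lactate export was the exception among the transporters, since the member Slc16a3 held 14.6% and Slc16a1 85.4%.

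In isotype replicate 3, the tumour richest in muscle RNA, the forms known from muscle took larger shares. Eno3 is itself 1 of the 17 muscle markers by which this tumour was ranked, so its share is not independent of that ranking. Pfkm is not on that list. Eno3 was 19.5% of the RNA of Eno1, Eno2 and Eno3 there and 3.85 to 9.60% elsewhere, and Pfkm was 36.8% of phosphofructokinase RNA there and 17.3 to 27.9% elsewhere. Correspondingly Eno1, of the sum without Eno1b, stood at 79.7% and Pfkl at 50.8% in that tumour, the lowest share of each among the 9.

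**Figure D1:**
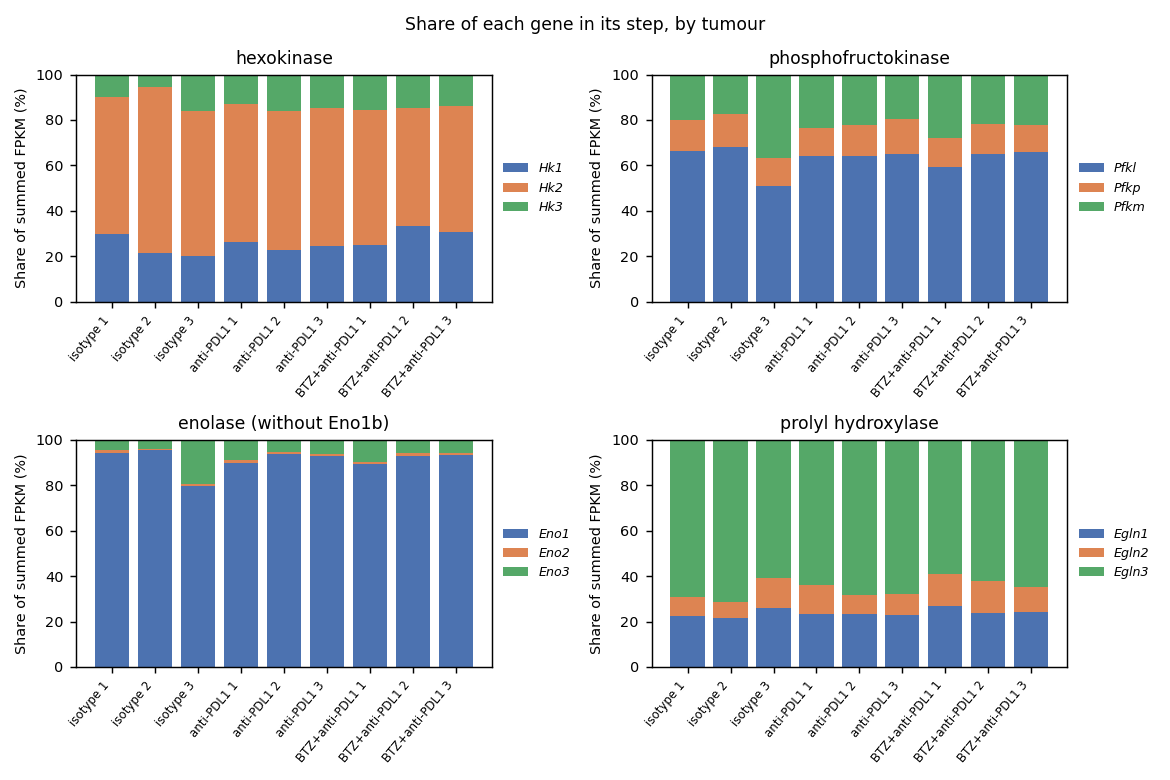
Share of each gene in the summed FPKM of its step (y axis, percent) in each of the 9 tumours (x axis, group and replicate), as stacked bars for hexokinase, phosphofructokinase, enolase and the prolyl hydroxylases. Hk2, Pfkl, Eno1 and Egln3 have the largest shares of the genes drawn (enolase without the copy Eno1b), and isotype replicate 3 shows larger shares of Pfkm (36.8%) and Eno3 (19.5%).

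Levels of 1 gene across tumours were compared in CPM scaled by edgeR's TMM factors. Most of the 38 genes had the same tumour at the top, and they spread more within the isotype group than within the treated groups. Isotype replicate 2 was the highest of all 9 tumours for 31 of the 38 genes (15 glycolysis genes and 16 other hypoxia genes), against 16.3% of all genes tested. BTZ+anti-PDL1 replicate 2 was the lowest for 18 of the 38, against 10.5%. Isotype replicate 3 was the lowest for 8 of the 38, against 12.7%, and it lay below every anti-PDL1 tumour for 22 of the 38, against 28.1%. The order replicate 2 highest and replicate 3 lowest of the isotype tumours was found in 30 of the 38 genes, against 17.8% of all genes. The ratio of the highest to the lowest isotype tumour had a median of 1.51 in the glycolysis genes and 1.70 in the other hypoxia genes, against 1.25 in all genes, and reached 4.92 for Adm. Within the anti-PDL1 group the medians were 1.23 and 1.28, against 1.19 in all genes, and within the BTZ+anti-PDL1 group 1.23 and 1.19, against 1.21.

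**Figure D2:**
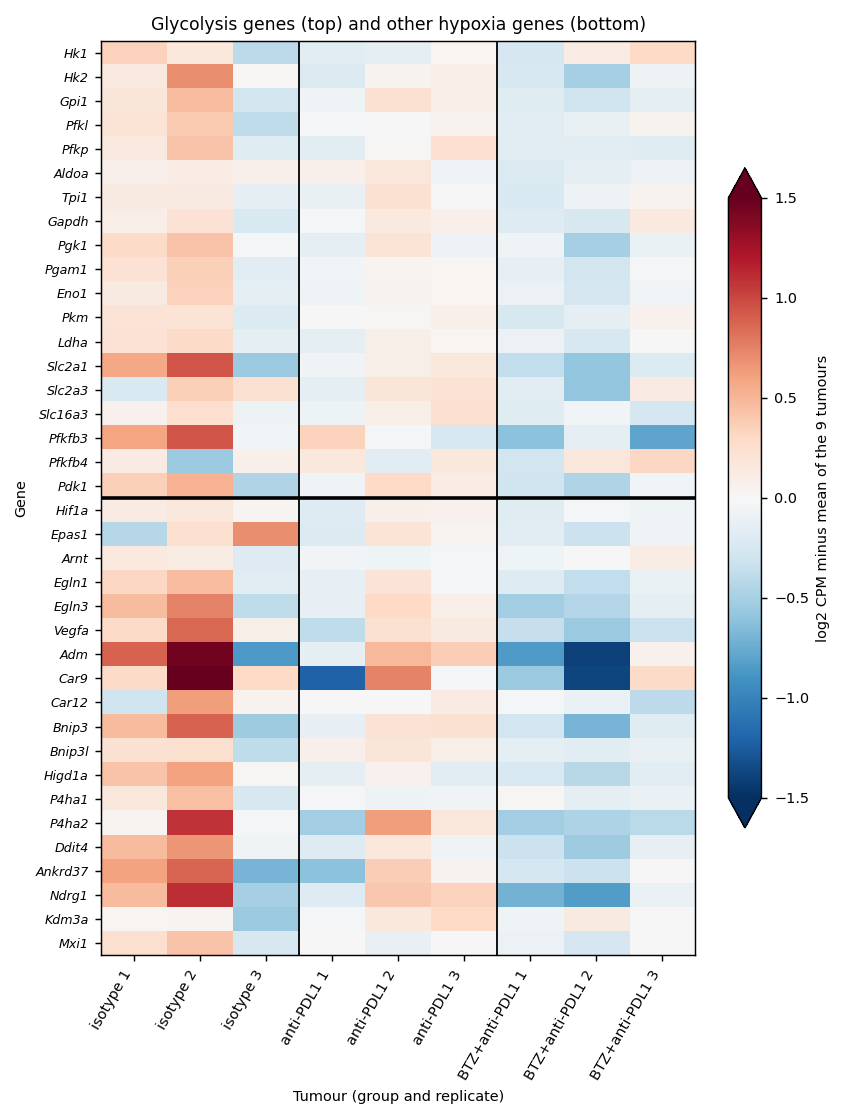
Level of each of the 38 genes (rows) in each of the 9 tumours (columns, in 3 groups), as log2 CPM relative to the average of that gene in all 9; colours are saturated beyond 1.5 in either direction. Isotype replicate 2 is highest for 31 of the 38 genes and BTZ+anti-PDL1 replicate 2 lowest for 18.

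The widest contrast of the design, BTZ+anti-PDL1 against isotype, asks what the combination did relative to the control antibody. It shares a group with each of the other 2 comparisons. In the BTZ+anti-PDL1 tumours 35 of the 38 genes had a log2 fold change below 0, against 50.3% of all genes. The median log2 fold change was -0.59 in the other hypoxia genes, -0.25 in the glycolysis genes and -0.0011 in all genes. None of the 38 passed edgeR's quasi-likelihood test at an adjusted p under 0.05 (0.00689% of all genes did), and the smallest adjusted p was 0.346, for Higd1a. At an unadjusted p under 0.05, 15 of the 38 were lower (7 glycolysis genes and 8 other hypoxia genes), against 4.18% of all genes, or 4.68% of genes with a mean of at least 10 CPM, and 0 of the 38 were higher, against 4.42%. DESeq2 called 4 of the 38, all lower, against 0.768% of all genes: Pfkfb3, Vegfa, Higd1a and Ddit4. The BTZ+anti-PDL1 tumours all lay below all isotype tumours for 9 genes (Hk2, Aldoa, Pgk1, Pfkfb3, Hif1a, Vegfa, Higd1a, P4ha2 and Ddit4), against 6.03% of all genes.

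**Figure D3:**
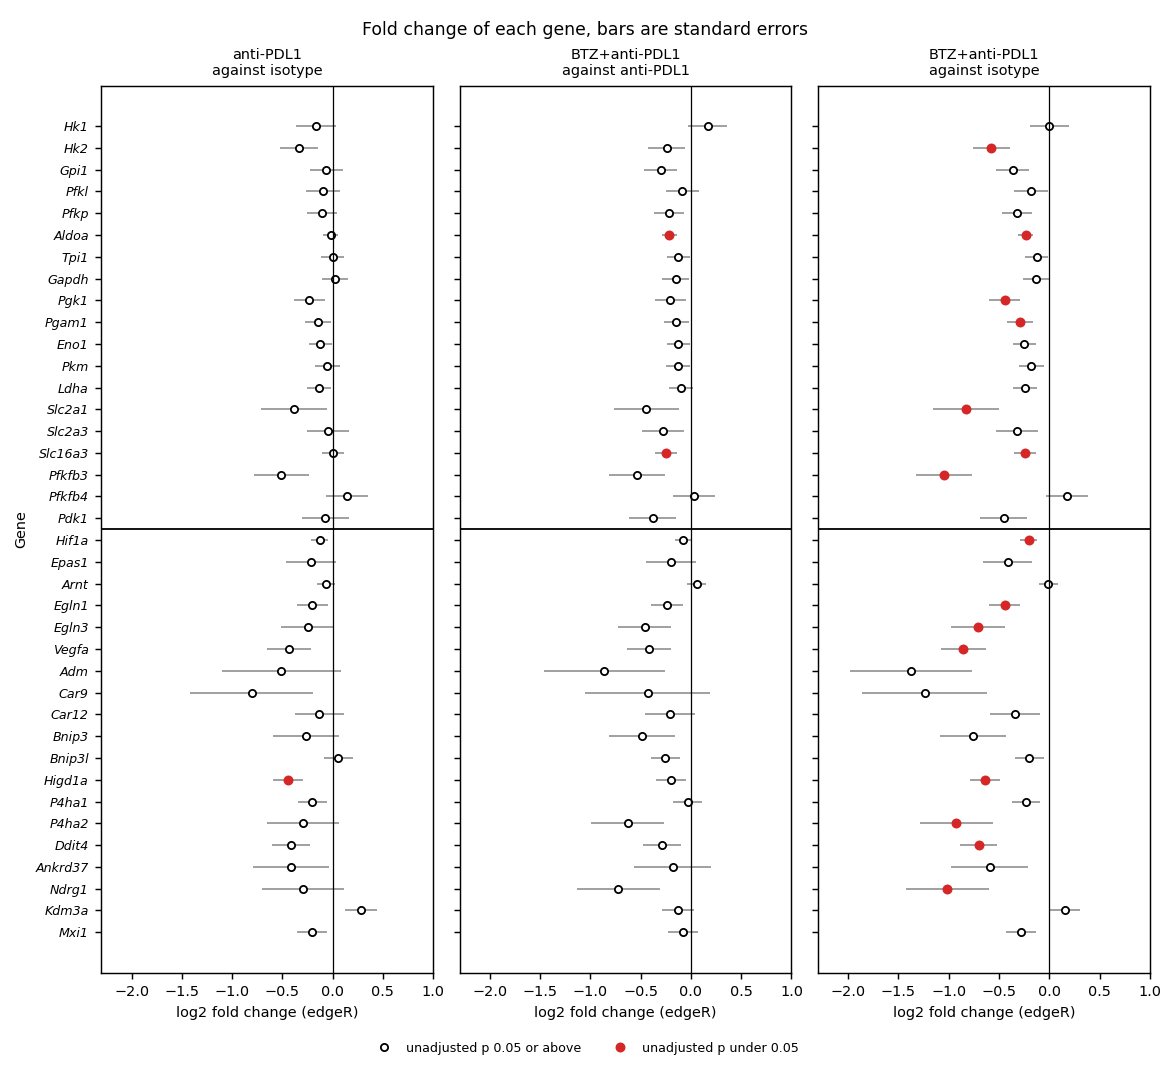
Log2 fold change of each of the 38 genes (x axis) in the 3 comparisons, with bars for the standard error and a line between glycolysis genes (top) and other hypoxia genes (bottom). Filled points have an unadjusted p under 0.05, which holds for 1, 2 and 15 genes in the 3 panels; no gene has an adjusted p under 0.05 in edgeR.

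Glucose enters the cell through Slc2a1 (chr4:119108711-119137983 in mm10), the main glucose transporter here. Its level was 531, 681 and 242 CPM in isotype replicates 1 to 3, 343, 376 and 394 CPM under anti-PDL1 and 274, 236 and 308 CPM under BTZ+anti-PDL1. Isotype replicates 1 and 2 were above all other tumours, while isotype replicate 3 was among the low ones, so the isotype and BTZ+anti-PDL1 groups overlapped. The log2 fold change of BTZ+anti-PDL1 against isotype was -0.83 ± 0.33 (± is the SE from edgeR, here and for every fold change below), with an adjusted p of 0.565 in edgeR. Slc2a3, another glucose transporter, stood at 11.7, 17.6 and 16.2 CPM, 12.6, 15.6 and 16.0 CPM and 12.3, 9.14 and 14.9 CPM in the same order of groups, and the 3 groups overlapped (-0.32 ± 0.21). Slc16a3, a lactate exporter, stood at 77.4, 88.1 and 70.4 CPM, 70.2, 78.6 and 87.6 CPM and 65.1, 72.2 and 61.7 CPM. The highest BTZ+anti-PDL1 value of Slc16a3, in replicate 2, was above isotype replicate 3 and anti-PDL1 replicate 1 (-0.25 ± 0.11 against isotype, adjusted p 0.580 in edgeR).

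Hk2, the inducible hexokinase, was at 249, 367 and 229 CPM in isotype tumours, 195, 235 and 242 CPM under anti-PDL1 and 192, 161 and 215 CPM under BTZ+anti-PDL1. Every BTZ+anti-PDL1 tumour was below every isotype tumour (1.49-fold lower in the fit), and isotype replicate 2 was far above the rest. The log2 fold change was -0.58 ± 0.19, with an adjusted p of 0.534 in edgeR. Pfkp, the platelet form of phosphofructokinase, had 154, 187 and 122 CPM, 125, 139.9 and 165 CPM and 123, 124 and 122 CPM, with the BTZ+anti-PDL1 tumours close together and level with isotype replicate 3 (-0.32 ± 0.15 against isotype). Hk1, a constitutive hexokinase, had a log2 fold change of 0.0016 ± 0.20.

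Aldoa (chr7:126795234-126800751), which splits the phosphorylated sugar into trioses, had the tightest isotype values of the 38. Its level was 818, 839.9 and 824 CPM in isotype tumours, 819.8, 875 and 752 CPM under anti-PDL1 and 668, 706 and 734 CPM under BTZ+anti-PDL1. All 3 BTZ+anti-PDL1 tumours were below all 6 others. The difference from isotype was small, at -0.24 ± 0.074 (1.18-fold lower), with an unadjusted p of 0.0104 and an adjusted p of 0.520 in edgeR.

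Pgk1, which makes the first ATP of the pathway, was at 961, 1059 and 772 CPM, 717, 909 and 747 CPM and 756, 560.2 and 739 CPM in isotype, anti-PDL1 and BTZ+anti-PDL1 tumours. The BTZ+anti-PDL1 tumours were all below the isotype tumours and overlapped the anti-PDL1 tumours (-0.44 ± 0.15, adjusted p 0.542 in edgeR against isotype). Gapdh, the enzyme before it, was at 359.7, 391 and 287 CPM, 329, 373 and 354 CPM and 295, 284 and 371 CPM, and all 3 groups overlapped (-0.13 ± 0.13 against isotype). Pkm was at 4346, 4349 and 3257 CPM, 3771, 3792 and 3967 CPM and 3189, 3428 and 3927 CPM, and Ldha at 1878, 1969 and 1474 CPM, 1468, 1716 and 1654 CPM and 1522, 1373 and 1616 CPM. In both genes isotype replicates 1 and 2 were the highest tumours and isotype replicate 3 lay within the range of the treated groups; the log2 fold changes were -0.18 ± 0.12 and -0.24 ± 0.12, neither with an unadjusted p under 0.05. The other enzymes had log2 fold changes between -0.36 (Gpi1) and -0.12 (Tpi1), with Pgam1 (-0.29 ± 0.13) under an unadjusted p of 0.05 and Gpi1, Eno1, Pfkl and Tpi1 not.

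The regulators did not go together. Pfkfb3 (chr2:11471433-11554077) makes the fructose bisphosphate that activates phosphofructokinase, and its level was 61.1, 77.9 and 39.5 CPM in isotype tumours, 51.4, 39.8 and 34.2 CPM under anti-PDL1 and 26.5, 36.5 and 23.4 CPM under BTZ+anti-PDL1. The highest BTZ+anti-PDL1 tumour, replicate 2, lay just below the lowest isotype tumour, replicate 3, so these groups did not overlap, whereas each overlapped the anti-PDL1 group. The level was 2.07-fold lower in BTZ+anti-PDL1 than in isotype tumours (-1.05 ± 0.28), with an adjusted p of 0.470 in edgeR and 0.0103 in DESeq2. Pfkfb4, a related enzyme, was at 13.9, 8.71 and 13.4 CPM, 14.3, 11.4 and 14.2 CPM and 10.6, 14.4 and 15.8 CPM. It was lowest in isotype replicate 2, the tumour in which 31 of the 38 genes were highest, and had a log2 fold change of 0.18 ± 0.21. Pdk1, which keeps pyruvate out of the mitochondria, was at 138, 155 and 78.8 CPM, 104, 133 and 117 CPM and 87.4, 79.0 and 105 CPM. Isotype replicate 3 was the lowest tumour for Pdk1, and the groups overlapped (-0.45 ± 0.24).

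**Figure D4:**
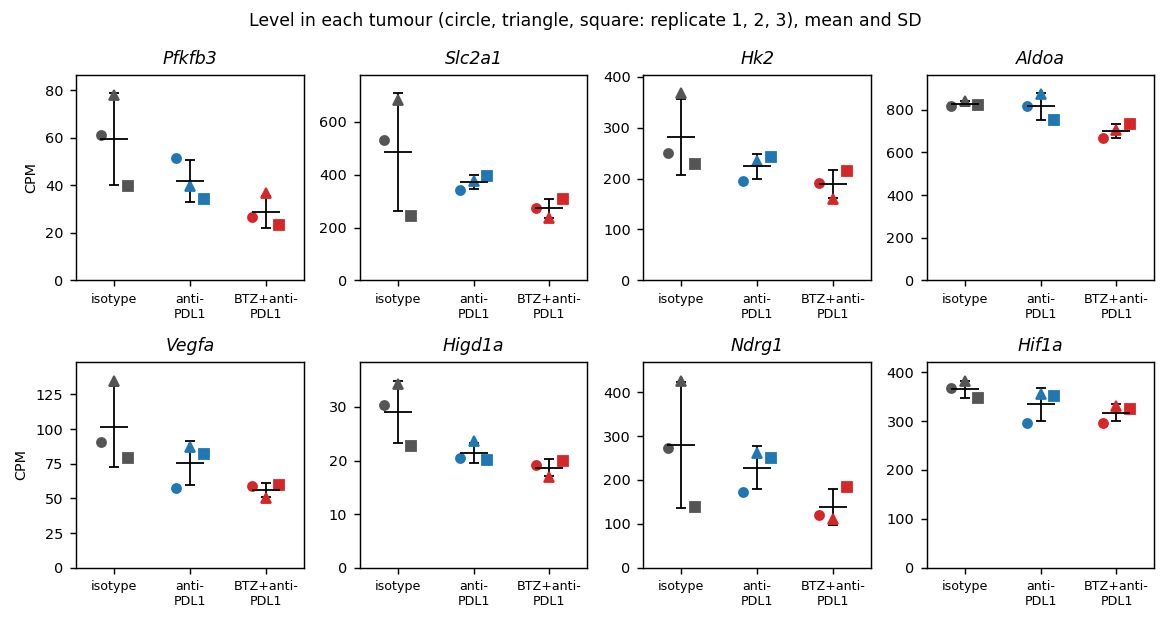
Level in CPM (y axis, from 0) of 8 of the genes in each tumour, by group, with the mean (line) and SD (bar) of 3 tumours; circle, triangle and square are replicates 1, 2 and 3. Pfkfb3, Hk2, Aldoa, Vegfa, Higd1a and Hif1a show no overlap between isotype and BTZ+anti-PDL1 tumours, while for Slc2a1 and Ndrg1 the square of isotype replicate 3 lies among the BTZ+anti-PDL1 points.

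Of the oxygen sensing genes, Hif1a, the main HIF alpha gene here, was at 368, 382 and 347 CPM in isotype tumours, 296, 356 and 352 CPM under anti-PDL1 and 297, 331 and 324 CPM under BTZ+anti-PDL1. The BTZ+anti-PDL1 tumours were all below the isotype tumours, by 1.15-fold in the fit (-0.20 ± 0.086, adjusted p 0.565 in edgeR). RNA says nothing of HIF protein, which is set mainly by degradation. Epas1, the alpha gene typical of endothelium, went another way: 17.0, 27.1 and 37.1 CPM, 19.9, 26.4 and 23.7 CPM and 20.6, 18.4 and 22.0 CPM, with isotype replicate 3 the highest and isotype replicate 1 the lowest of all 9 tumours (-0.41 ± 0.25). Arnt, the shared partner, had a log2 fold change of -0.01 ± 0.093. Egln3, the prolyl hydroxylase most induced by hypoxia, was at 312, 374 and 171 CPM, 206, 275 and 239.6 CPM and 156, 165 and 202 CPM. Every BTZ+anti-PDL1 tumour was below every anti-PDL1 tumour in Egln3, and isotype replicate 3 lay among the BTZ+anti-PDL1 values (-0.71 ± 0.27 against isotype, adjusted p 0.549 in edgeR). Egln1, the constitutive form, had a log2 fold change of -0.44 ± 0.16.

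Vegfa (chr17:46016993-46032377), the main growth factor for blood vessels, was at 90.7, 135 and 79.3 CPM in isotype tumours, 57.3, 86.9 and 81.9 CPM under anti-PDL1 and 58.7, 50.5 and 59.6 CPM under BTZ+anti-PDL1. All 3 BTZ+anti-PDL1 tumours were below all isotype tumours, and anti-PDL1 replicate 1 was as low as they were. The level was 1.81-fold lower than in isotype tumours (-0.85 ± 0.22), with an adjusted p of 0.458 in edgeR and 0.0124 in DESeq2. Adm, which encodes the vasodilator adrenomedullin, was at 64.3, 94.7 and 19.2 CPM, 31.6, 48.8 and 45.0 CPM and 19.3, 13.2 and 36.3 CPM. Isotype replicate 2 was the highest tumour, isotype replicate 3 was below every anti-PDL1 tumour, and the groups overlapped. The log2 fold change of -1.37 ± 0.61, the largest of the 38 in size, had an adjusted p of 0.586 in edgeR.

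The carbonic anhydrases, which handle acid at the cell surface, were low. Car9 was at 10.9, 26.2 and 10.9 CPM in isotype tumours, 3.85, 14.9 and 8.71 CPM under anti-PDL1 and 6.06, 3.42 and 10.9 CPM under BTZ+anti-PDL1. Isotype replicate 2 was again the highest, while BTZ+anti-PDL1 replicate 3 matched the other isotype tumours, so the groups overlapped (-1.24 ± 0.62). Car12 had a log2 fold change of -0.34 ± 0.25.

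Higd1a (chr9:121848560-121858000), a small mitochondrial protein linked to the respiratory chain, was at 30.3, 34.2 and 22.8 CPM in isotype tumours, 20.6, 23.6 and 20.0 CPM under anti-PDL1 and 19.2, 16.9 and 20.0 CPM under BTZ+anti-PDL1. Here all BTZ+anti-PDL1 tumours were below all 6 others, although the highest of them and the lowest anti-PDL1 tumour were equal to 3 significant digits. The level was 1.56-fold lower than in isotype tumours (-0.64 ± 0.15), with an adjusted p of 0.346 in edgeR and 0.0298 in DESeq2. Bnip3, a receptor for mitochondrial clearance, was at 109, 144 and 54.2 CPM, 71.9, 91.2 and 91.9 CPM and 64.2, 48.1 and 69.1 CPM. Every BTZ+anti-PDL1 tumour was below every anti-PDL1 tumour for Bnip3, but only BTZ+anti-PDL1 replicate 2 was below isotype replicate 3 (-0.76 ± 0.33 against isotype). Its relative Bnip3l was at 99.3, 100.0 and 64.9 CPM, 89.2, 96.0 and 89.8 CPM and 76.3, 75.9 and 78.2 CPM, and isotype replicate 3 was the lowest tumour (-0.20 ± 0.14).

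Ddit4 (chr10:59949675-59951770), a stress-induced inhibitor of mTOR signalling, was at 89.2, 102 and 61.4 CPM in isotype tumours, 56.1, 72.1 and 61.9 CPM under anti-PDL1 and 51.6, 44.7 and 59.1 CPM under BTZ+anti-PDL1. The BTZ+anti-PDL1 tumours were all below the isotype tumours (1.63-fold, -0.70 ± 0.19), with an adjusted p of 0.470 in edgeR and 0.0343 in DESeq2. Ndrg1, a long-used hypoxia marker, was at 274, 427 and 139 CPM, 172, 262 and 251 CPM and 120.4, 111 and 185 CPM. Isotype replicates 1 and 2 were the highest of the 9, isotype replicate 3 was below all but BTZ+anti-PDL1 replicates 1 and 2, and the groups overlapped (-1.02 ± 0.41, adjusted p 0.569 in edgeR). Ankrd37, a small ankyrin repeat gene, was at 11.4, 13.8 and 4.65 CPM, 4.90, 9.74 and 7.77 CPM and 6.26, 6.04 and 7.49 CPM, with isotype replicate 3 the lowest tumour (-0.59 ± 0.38). The collagen prolyl hydroxylases had log2 fold changes of -0.23 ± 0.14 (P4ha1) and -0.92 ± 0.36 (P4ha2), and the latter had no overlap between the groups. Kdm3a, a histone demethylase, was at 113, 114 and 75.0 CPM, 108, 123 and 135 CPM and 105, 121 and 109 CPM, and was the only one of the 19 other hypoxia genes with a positive fold change (0.15 ± 0.16). Mxi1, an antagonist of Myc, had -0.28 ± 0.15.

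The count of 15 genes at an unadjusted p under 0.05 in this comparison depended on single tumours. It was 28 without isotype replicate 3 (5.03% of all genes were then lower at that level) and 6 without isotype replicate 2 (2.32%); it was 9 without isotype replicate 1 (5.53%), and 8 without BTZ+anti-PDL1 replicate 1 (3.98%) or replicate 2 (2.89%). Without isotype replicate 3, edgeR called Slc2a1, with a log2 fold change of -1.15 ± 0.13 (SE) and an adjusted p of 0.0348, against 0.136% of all genes. The sizes of the differences depended on single tumours too. The median of the glycolysis genes was -0.16 without isotype replicate 2 and -0.36 without isotype replicate 3, and that of the other hypoxia genes -0.41 and -0.79. Of the 22 of the 38 genes named by rule in this comparison, 16 had a log2 fold change that moved by over 1.5 times in at least 1 of these fits. Without isotype replicate 2 it was -0.33 for Hk2, -0.50 for Slc2a1, -0.47 for Egln3, -0.86 for Adm, -0.68 for Car9, -0.42 for Bnip3 and -0.57 for Ndrg1, and the 6 of the 22 that stayed within 1.5 times in every such fit were Hif1a, Vegfa, Pgk1, Pfkfb3, Aldoa and Higd1a.

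The comparison of anti-PDL1 with isotype asks what the antibody did by itself. In the anti-PDL1 tumours 32 of the 38 genes had a log2 fold change below 0, against 51% of all genes, but the differences were small: the median log2 fold change was -0.10 in the glycolysis genes and -0.25 in the other hypoxia genes, and -0.0034 in all genes. None of the 38 passed edgeR's quasi-likelihood test at an adjusted p under 0.05 (0.0138% of all genes did) or that of DESeq2 (0.104%). Higd1a was the only 1 of the 38 lower at an unadjusted p under 0.05 in edgeR, against 3.34% of all genes, with -0.44 ± 0.15 and an adjusted p of 0.763. Its anti-PDL1 replicate 2 was above isotype replicate 3. None of the 38 had groups without overlap (6.61% of all genes did, in the lower direction). Ddit4 (-0.41 ± 0.19), Pfkfb3 (-0.51 ± 0.27) and Hk2 (-0.33 ± 0.19) had unadjusted p of 0.0556, 0.0972 and 0.108 in edgeR. The positive fold changes ran up to 0.28 ± 0.16, for Kdm3a. Leaving out isotype replicate 3 gave 20 genes lower at an unadjusted p under 0.05 (against 4% of all genes), leaving out isotype replicate 2 (2.3%) or anti-PDL1 replicate 3 (2.54%) gave 0, and leaving out isotype replicate 1 (3.77%) or anti-PDL1 replicate 2 (2.79%) gave 2. Without isotype replicate 2 the median was 0.0039 in the glycolysis genes and -0.024 in the other hypoxia genes, and without isotype replicate 3 it was -0.25 and -0.49. Without anti-PDL1 replicate 1 the medians were -0.038 and -0.15, and without isotype replicate 1 that of the glycolysis genes was -0.045.

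The comparison of BTZ+anti-PDL1 with anti-PDL1 asks what BTZ added to the antibody, and it shares the anti-PDL1 tumours with the comparison before it. Here 35 of the 38 genes had a log2 fold change below 0, against 49.2% of all genes. The medians were -0.21 in the glycolysis genes and -0.24 in the other hypoxia genes, and 0.0029 in all genes. None of the 38 passed edgeR's quasi-likelihood test at an adjusted p under 0.05 (0.0138% of all genes did) or that of DESeq2 (0.47%). Aldoa (-0.22 ± 0.074, adjusted p 0.819) and Slc16a3 (-0.25 ± 0.11, adjusted p 0.854) were the 2 genes lower at an unadjusted p under 0.05 in edgeR, against 2.67% of all genes. Of the other hypoxia genes, Vegfa (-0.42 ± 0.22) and Bnip3l (-0.26 ± 0.14) had the smallest unadjusted p, at 0.0894 and 0.107. For 9 genes all BTZ+anti-PDL1 tumours lay below all anti-PDL1 tumours (Gpi1, Pfkp, Aldoa, Slc2a1, Egln3, Car12, Bnip3, Bnip3l and Higd1a), against 6.99% of all genes. For Slc2a1 that difference was -0.44 ± 0.33, for Egln3 -0.46 ± 0.27 and for Bnip3 -0.49 ± 0.33; the standard errors come from the spread of all 9 tumours. With only the 6 tumours of this comparison in the fit, 13 of the 38 were lower at an unadjusted p under 0.05, against 4.2% of all genes. In the fit of all groups the count was 12 with isotype replicate 3 left out (3.37% of all genes), 5 with isotype replicate 2 (2.88%) and 4 with anti-PDL1 replicate 1 (2.56%). It was 1 when isotype replicate 1 (3.3%), anti-PDL1 replicate 3 (1.85%) or BTZ+anti-PDL1 replicate 3 (2.32%) was left out, and 0 when anti-PDL1 replicate 2 (1.73%) or BTZ+anti-PDL1 replicate 1 (1.7%) was. The medians were -0.14 in the glycolysis genes and -0.15 in the other hypoxia genes without anti-PDL1 replicate 2, and that of the glycolysis genes was -0.11 without BTZ+anti-PDL1 replicate 2.

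Markers of other cell types differed between the same tumours. The summed muscle markers (17 of 17 tested) ran from 19.2 to 3161 CPM in isotype tumours, 135 to 1186 CPM under anti-PDL1 and 20.5 to 933 CPM under BTZ+anti-PDL1, and isotype replicate 3, which lay below every anti-PDL1 tumour for 22 of the 38 genes, was the highest. With a muscle score as a covariate, 22 of the 38 were lower at an unadjusted p under 0.05 in BTZ+anti-PDL1 against isotype (4.73% of all genes), 18 in BTZ+anti-PDL1 against anti-PDL1 (3.89%) and 1 in anti-PDL1 against isotype (4.13%). In the last of these the medians with the covariate were -0.0051 in the glycolysis genes and -0.093 in the other hypoxia genes. With the muscle-richest tumour of each group left out, the counts in the same order were 26 (4.38% of all genes), 10 (2.57%) and 11 (2.9%). The 12 endothelial markers summed to 281 to 446 CPM in isotype tumours, 287 to 371 CPM under anti-PDL1 and 240.2 to 289 CPM under BTZ+anti-PDL1, highest in isotype replicate 2 and lowest in BTZ+anti-PDL1 replicate 2, the tumours at the ends of the order of the 38 genes. Between these ends the order differed. Isotype replicate 3 had 380 CPM of endothelial markers and isotype replicate 1 had 281 CPM. Over the 38 genes, the mean log2 CPM relative to the 9-tumour average was -0.17 in isotype replicate 3 and 0.23 in isotype replicate 1. In BTZ+anti-PDL1 against isotype all 12 endothelial markers had a log2 fold change below 0 (median -0.51). In BTZ+anti-PDL1 against anti-PDL1 11 of the 12 did (median -0.32), and in anti-PDL1 against isotype all 12 did (median -0.25). The 12 macrophage markers were lowest in isotype replicate 2 (961 to 1777 CPM in the isotype, 1707 to 1857 CPM and 1508 to 1708 CPM in the other groups), and so were the 12 T cell markers (6.78 to 35.6 CPM, 32.5 to 37.3 CPM and 29.9 to 47.6 CPM). Red blood cell markers (8 listed, 6 tested) summed to 136 to 269 CPM, 45.3 to 89.2 CPM and 29.2 to 196 CPM, and 12 cell cycle genes to 2068 to 2469 CPM, 2071 to 2543 CPM and 2254 to 2621 CPM. In BTZ+anti-PDL1 against anti-PDL1 all 7 neutrophil markers tested of 10 had a log2 fold change below 0, with a median of -0.86 and sums of 89.0 to 186 CPM in the isotype, 104 to 161 CPM in the anti-PDL1 and 77.1 to 125 CPM in the BTZ+anti-PDL1 tumours. For the 10 fibroblast markers 7 did, with a median of -0.41 and sums of 7941 to 9559 CPM, 9119 to 12153 CPM and 8004 to 8222 CPM. The 6 adipocyte markers tested of 8 all had a log2 fold change below 0 in anti-PDL1 against isotype, with a median of -1.02, and summed to 17.5 to 206 CPM, 38.1 to 64.7 CPM and 18.1 to 81.6 CPM, highest in isotype replicate 3. None of the 8 keratinocyte markers passed the filter, and their sum was also highest in isotype replicate 3, at 15.1 CPM. The part of RNA from these cell types other than muscle in the differences of the 38 genes was not tested.

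**Figure D5:**
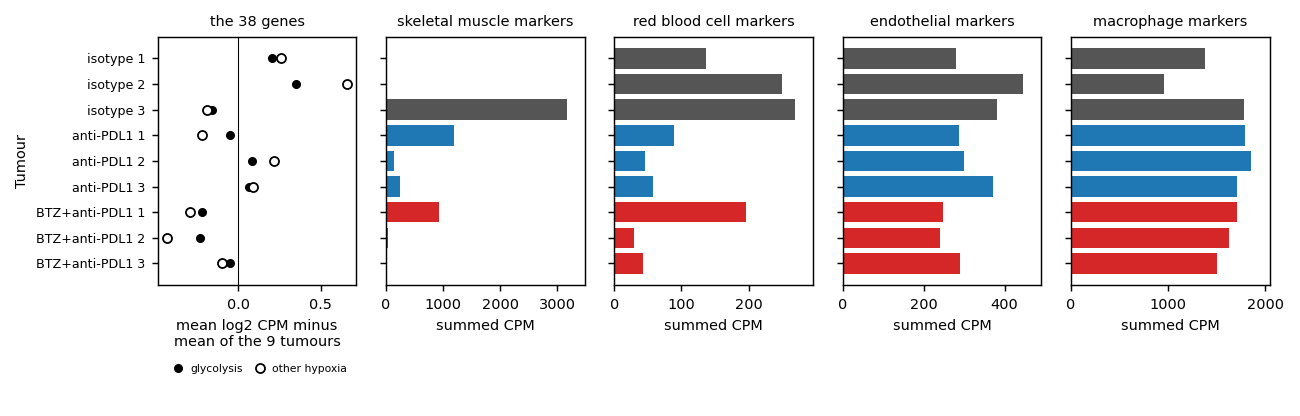
For each tumour (y axis), the deviation of log2 CPM from the 9-tumour average, averaged over the 19 glycolysis genes (filled) and the 19 other hypoxia genes (open), beside the summed CPM of 4 marker lists (bars). Isotype replicate 2 is highest for the 38 genes (0.35 and 0.66) and for endothelial markers and lowest for macrophage markers, and isotype replicate 3 is highest for muscle markers at 3161 CPM.

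Genes of the same pathways outside the 38 were read from 2 further lists. Of 34 other glycolysis genes 28 were tested, and in BTZ+anti-PDL1 against isotype 2 were lower at an unadjusted p under 0.05 (4.18% of all genes): Pgm2, a phosphoglucomutase (-0.44 ± 0.16), and Bpgm, which makes a bisphosphoglycerate (-0.32 ± 0.13). Their median log2 fold change was -0.09, against -0.25 in the 19 glycolysis genes described above. In anti-PDL1 against isotype 2 were lower (3.34% of all genes): Slc16a1 (-0.16 ± 0.064) and Bpgm (-0.32 ± 0.13). In BTZ+anti-PDL1 against anti-PDL1 0 were lower (2.67% of all genes), with Pgm2 (-0.34 ± 0.16) and Slc16a1 (0.10 ± 0.064) having the smallest p. Of 40 other hypoxia pathway genes 38 were tested. In BTZ+anti-PDL1 against isotype 11 were lower at an unadjusted p under 0.05 (4.18% of all genes), and the median of the list was -0.27. The 2 with the smallest p were Stc2, a secreted glycoprotein (-1.51 ± 0.39, adjusted p 0.418 in edgeR), and Vldlr, a lipoprotein receptor (-1.29 ± 0.33, adjusted p 0.420). Vldlr and Stc2 were also the 2 genes of this list lower at an unadjusted p under 0.05 in BTZ+anti-PDL1 against anti-PDL1 (-1.02 ± 0.33 and -1.09 ± 0.39). The share of all genes was 2.67% in that comparison, which shares the BTZ+anti-PDL1 tumours. In anti-PDL1 against isotype 1 was lower (Edn1, -1.20 ± 0.45), against 3.34% of all genes. In the same comparison 2 were higher, led by Rora (1.45 ± 0.47), against 437 of the 14506 genes tested. No gene of either list passed edgeR's test after adjustment over all genes. DESeq2 called 2 of the hypoxia list in BTZ+anti-PDL1 against isotype, against 0.768% of all genes. They were Vldlr (adjusted p 0.0206 in DESeq2) and Pgf (adjusted p 0.0433 in DESeq2), a vessel growth factor named after its value was seen.

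Near-identical copies elsewhere in the genome can share reads with several of the 38 genes. The counts of the annotated copy Eno1b came to 52.8% of those of Eno1, Bnip3l-ps to 44.2% of Bnip3l, Pgam1-ps2 to 10.4% of Pgam1 and Tpi-rs11 to 2.12% of Tpi1, while the named copies of Gapdh, Ldha, Pgk1 and Aldoa each came to 0.313% or less. How reads that match both were shared out is not known, so the levels of Eno1, Bnip3l and Pgam1 are uncertain. Each copy was also added to its member before the fit, an alternative chosen after the data were seen. With that, 14 of the 38 were lower at an unadjusted p under 0.05 in BTZ+anti-PDL1 against isotype (4.17% of all genes), and 0 were called by edgeR.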

How the data were processed

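RNA of 9 tumours was measured. The deposited count of each gene is a whole number, not normalised, and the deposited FPKM was made by the authors, per the file headers; for 15315 genes it could be rebuilt from the count, a length constant and the total of the column to a relative deviation of 0.000574 or less. The submitters' processing notes name mm10, StringTie 1.3.3b and HISAT2 2.0.4; how reads were counted, and by strand or not, was not given in the sources, so overlapping, antisense and near-identical genes are uncertain. Groups follow the treatment labels.

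The counts were fitted with edgeR 4.0.16 in R 4.3.3 (quasi-likelihood F test, robust, TMM scaling, filterByExpr with a minimum count of 10, 3 group means over 9 tumours, 6 residual degrees of freedom). P-values were two-sided, adjusted by Benjamini-Hochberg over 14506 genes, and called under 0.05. Standard errors were derived from F, as the size of the log2 fold change over its square root. Alternatives used DESeq2 1.42.0 and limma 3.58.1 on log2(FPKM + 1) or log2(FPKM + 0.1). On data simulated for BTZ+anti-PDL1 against isotype (14333 genes), edgeR recovered 31.3% of 1.5-fold, 50.7% of 2-fold and 86.4% of 4-fold changes.

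The 38 genes, the pathway and marker lists and the tests were chosen with earlier results of these data known. Values in every tumour are given for a fixed panel of 19 genes and for the 2 smallest p per comparison among the glycolysis and among the other hypoxia genes; Pfkfb4 and Kdm3a were added after their values were seen.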

Additional observations from a re-analysis of the deposited data

How the results depend on the processing

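With 3 tumours a group and a spread that is wide among the isotype tumours, a change of 1.5-fold would often be missed. The number of the 38 genes called by edgeR was 0 in each comparison, and was also 0 with RLE scaling, no filter on low counts, the replicate block, only the 6 tumours compared, limma on FPKM, a muscle covariate and the named copies summed. In BTZ+anti-PDL1 against isotype DESeq2 called 4, and leaving out 1 tumour gave 0 to 1.

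The count lower at an unadjusted p under 0.05 was less stable. In anti-PDL1 against isotype it was 1, and 4 with DESeq2 (3.32% of all genes) and 2 with the replicate block (2.72%). It was 11 without the muscle-richest tumour of each group (2.9%) and 0 to 20 on leaving out 1 tumour. In BTZ+anti-PDL1 against anti-PDL1 it was 2, and 6 with DESeq2 (3% of all genes) and 13 with only the 6 tumours compared (4.2%). It was 10 without the muscle-richest tumours (2.57%), 18 with the muscle covariate (3.89%) and 0 to 12 on leaving out 1 tumour. Each of the limma fits gave 1: log2(FPKM + 1) (2%), log2(FPKM + 0.1) (1.97%) and log2(FPKM + 1) with no filter (2.25%). In BTZ+anti-PDL1 against isotype it was 15, and 21 with DESeq2 (4.61%), 22 with the muscle covariate (4.73%) and 26 without the muscle-richest tumours (4.38%). It was 11 with only the 6 tumours compared (3.34%), 11 or 12 in the limma fits (2.67% to 3.54%) and 6 to 28 on leaving out 1 tumour. The share of all genes lower at that p ran, on leaving out 1 tumour, from 2.13% to 4%, from 1.7% to 3.37% and from 2.32% to 5.53% in the 3 comparisons. The cause of these changes was not tested.

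The medians of both lists kept their sign in every setting but 1, yet not their size. On leaving out 1 tumour the glycolysis median of anti-PDL1 against isotype ran from -0.25 to 0.0039, the last without isotype replicate 2, and the other hypoxia median from -0.49 to -0.024; with the muscle covariate they were -0.0051 and -0.093. In BTZ+anti-PDL1 against anti-PDL1 the medians ran from -0.21 to -0.11 and from -0.31 to -0.15, and in BTZ+anti-PDL1 against isotype from -0.36 to -0.16 and from -0.79 to -0.41. For 42 pairs of a named gene and a comparison (31 genes), 828 values were computed over 20 settings. Of these, 823 kept direction and side of the threshold and 5 crossed it to a call. None of the 42 pairs was called in the main fit, so no call could be lost, and the count says little of stability. The DESeq2 calls of Ddit4 and Pgf in BTZ+anti-PDL1 against isotype are not among these pairs.

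The labels do not say that replicate numbers pair the tumours. Over all genes the correlations of same-numbered tumours ran from -0.43 to 0.39, and those of different-numbered tumours from -0.42 to 0.58. The value of 0.58 was between 2 muscle-rich tumours, isotype replicate 3 and BTZ+anti-PDL1 replicate 1. The value of 0.39 was also between 2 muscle-rich tumours, anti-PDL1 replicate 1 and BTZ+anti-PDL1 replicate 1. With 3 tumours a group, these values cannot show whether same-numbered tumours shared a batch or day. With the number as a replicate block 2, 3 and 10 of the 38 had a lower level at that unadjusted p in the 3 comparisons, taken in the order given above, against 2.72%, 2.53% and 3.72% of all genes.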

Other observations

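Of the other hypoxia pathway genes, a pair was singled out after their values were seen. Ak4 did not follow the order of the 38 genes, and Lox followed it only in part. Ak4, an adenylate kinase of mitochondria and a hypoxia target, was at 20.1, 8.41 and 40.0 CPM in isotype replicates 1 to 3, 45.1, 8.58 and 6.74 CPM under anti-PDL1 and 9.71, 6.20 and 41.2 CPM under BTZ+anti-PDL1. In each group 1 tumour was several times above another, and isotype replicate 2, highest for 31 of the 38 genes, was among the low ones. Lox, a collagen crosslinking enzyme and hypoxia target, was at 1.26 CPM in isotype replicate 1, far below the 87.5 and 54.1 CPM of isotype replicates 2 and 3. Its levels were 27.1, 77.6 and 51.0 CPM under anti-PDL1 and 14.2, 8.23 and 20.3 CPM under BTZ+anti-PDL1. Lox was highest in isotype replicate 2, as were 31 of the 38 genes. All BTZ+anti-PDL1 tumours lay below all anti-PDL1 tumours for Lox (-1.86 ± 1.16), and the isotype and BTZ+anti-PDL1 groups overlapped (-1.74 ± 1.16).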
